A study of Mus musculus with 8 samples.

Results

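The AP-1 factor loci are the genes of 10 members of the AP-1 transcription factor family (Fos, Fosb, Fosl1, Fosl2, Jun, Junb, Jund, Atf3, Batf and Batf3) with the open chromatin around them. A region belonged to a locus if it lay inside the gene (GRCm38), or within 50 kb of it with that gene's end as the nearest end of a protein-coding gene. By this rule 81 of the 148664 regions in the deposited count table were members. Jun had 17 of them, Fos 15, Atf3 12, Fosl2 10, Fosb 7, Batf3 6, Junb 5, Fosl1 4, Jund 3 and Batf 2. Accessibility had been measured by ATAC-seq, in which a transposase cuts open DNA and tags it for sequencing, in 4 mouse melanoma cell lines. Lines 112 and 113 were labelled STAT3 knockout (written Stat3∆ in the protocol), and lines 119 and 73 were labelled wild type (written Stat3fl, the floxed allele). According to the protocol each line was a pool of cells grown out of the lymph nodes of mice that had skin melanoma, with onset at about 25 to 30 weeks of age, although the labels also call each line a clone. The Cre driver and the tumour model are not given in the sources used here, nor is the meaning of a number after the letter p in the titles (p18, p44, p14 and p68 for lines 112, 113, 119 and 73). Each line had 2 libraries labelled as biological replicates, from 50000 cells each. Nothing says that these came from separate cultures, so p-values between lines measure only the spread between such libraries. With 2 lines per genotype, a STAT3 effect and other differences between the lines cannot be told apart.

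AP-1 is not one protein but a set of dimers. JUN proteins pair with each other or with FOS, ATF or BATF proteins through a leucine zipper, and the basic region beside it binds DNA, mostly at the sequence TGANTCA. Several of these genes are immediate-early genes, switched on within minutes by growth factors, stress or kinase signalling, and c-Jun, the product of Jun, is known to bind with STAT3 at some enhancers. In melanoma, AP-1 activity is known to mark cells that have moved away from the pigmented state.

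The promoters of 5 members are shown because they hold matches to motifs that signal-regulated or STAT factors are known to bind. Each run is the 250 bases before the RefSeq transcription start (GRCm38.p6), written 5′ to 3′ on the strand of the gene, with a motif match in capitals. Fos, the prototype immediate-early gene, lies at chr12:85473640-85473889 on the plus strand. Jun lies at chr4:95052223-95052472 on the minus strand. Atf3, a stress-induced factor that can repress as a dimer with itself, lies at chr1:191183334-191183583 on the minus strand. Batf, a partner of JUN proteins in lymphocytes, lies at chr12:85686470-85686719 on the plus strand. Batf3, needed for a class of dendritic cells, lies at chr1:191098164-191098413 on the plus strand.
Fos: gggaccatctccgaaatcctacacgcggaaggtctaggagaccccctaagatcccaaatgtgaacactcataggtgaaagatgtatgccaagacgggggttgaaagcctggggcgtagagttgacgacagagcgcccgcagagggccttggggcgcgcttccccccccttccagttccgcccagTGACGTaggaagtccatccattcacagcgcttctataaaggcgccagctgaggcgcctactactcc
Jun: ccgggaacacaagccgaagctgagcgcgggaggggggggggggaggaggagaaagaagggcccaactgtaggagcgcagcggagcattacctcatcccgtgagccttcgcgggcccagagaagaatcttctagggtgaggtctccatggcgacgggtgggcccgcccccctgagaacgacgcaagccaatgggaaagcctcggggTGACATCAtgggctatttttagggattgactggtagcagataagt
Atf3: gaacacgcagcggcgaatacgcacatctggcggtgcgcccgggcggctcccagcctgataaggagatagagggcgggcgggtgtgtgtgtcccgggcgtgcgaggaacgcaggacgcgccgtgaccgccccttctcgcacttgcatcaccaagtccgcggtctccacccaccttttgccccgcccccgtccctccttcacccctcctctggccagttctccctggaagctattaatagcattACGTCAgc
Batf: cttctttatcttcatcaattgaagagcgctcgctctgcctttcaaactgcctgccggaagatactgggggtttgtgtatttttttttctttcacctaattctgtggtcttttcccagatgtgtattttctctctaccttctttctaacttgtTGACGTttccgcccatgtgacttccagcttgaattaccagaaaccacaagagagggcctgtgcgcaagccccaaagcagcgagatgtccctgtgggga
Batf3: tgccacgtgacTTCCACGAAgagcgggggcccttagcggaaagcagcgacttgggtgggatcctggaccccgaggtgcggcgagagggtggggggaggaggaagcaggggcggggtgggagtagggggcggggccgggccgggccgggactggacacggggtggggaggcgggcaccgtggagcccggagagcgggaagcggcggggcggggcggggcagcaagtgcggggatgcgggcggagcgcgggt

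Promoter entries were found for 9 of the 10 genes, all but Fosl1, and both strands were searched. The capitals in Fos, Batf and Atf3 mark TGACGT, the core of the cAMP response element (in Atf3 it reads on the other strand). It lies 66 to 61 bases before the start in Fos, 98 to 93 in Batf and 8 to 3 in Atf3. In Jun they mark TGACATCA, a variant of the same element that c-Jun and ATF2 are known to bind, 45 to 38 bases before the start. In Batf3 they mark TTCNNNGAA, the palindrome that STAT proteins bind, 239 to 231 bases before the start, and this was the single match to that motif among the 9 promoters. Over all 32851 promoter windows of 250 bases in the table, TGACGT was found in 6.47%, TGACATCA in 2.93% and TTCNNNGAA in 7.02%. TGACGT and TGACATCA were added to the search after the sequences had been seen. The AP-1 site TGANTCA (6.75% of windows), the full element TGACGTCA, which contains TGACGT (1.55%), and the CArG box of serum response factor (1.47%) were in 0 of the 9 windows. TTGCNNAA, a C/EBP-type motif (9.56%), was in Jund alone. A match describes the letters and is not evidence of binding. Bases farther than 250 before the start, and those after it, were not searched, so a site there would be missed.

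Counts per library over all regions ranged from 2697546 (line 112 replicate 2) to 7464336 (line 119 replicate 1). Values below are CPM (counts normalised to library size with TMM factors), and 3 counts came to between 0.388 and 0.923 CPM. The strongest end region of Stat3 itself was open in all lines, at 28.2, 38, 18.2 and 33.5 CPM in lines 112, 113, 119 and 73, and gave no check of the labels since the deleted part of the gene is not known from them. All 7 melanocyte genes on the marker list (Mitf, Sox10, Tyr, Tyrp1, Dct, Pmel and Mlana) had a region at a gene end, and their summed level was 124 to 160, 221 to 250, 74.6 to 84.2 and 122 to 123 CPM in lines 112, 113, 119 and 73. Sox10, which defines the lineage, was at 3.09 CPM in line 73 against 17.6 to 27.9 in the others. Tyr, Tyrp1, Dct and Mlana were higher in both knockout lines than in both wild-type lines. In lines 112, 113, 119 and 73, Tyr was at 17.7, 19.8, 4.82 and 1.86 CPM and Tyrp1 at 5.26, 15.4, 1.02 and 2.83. Dct was at 22.8, 62.5, 3.79 and 0.534 CPM and Mlana at 10.4, 10.3, 0.745 and 0.256 in the same order. Pmel (74.6 CPM) and Mitf (39.1 CPM) were highest in line 73, and Pmel made most of that line's sum. For each marker the strongest region within 1 kb of either gene end was used, and it need not be the promoter of that gene. Of 14 genes of lymphocytes, myeloid cells and endothelium, 7 had a region (there was none at Ptprc, Cd3g, Cd8a, Csf1r, Itgam, Pecam1 or Cdh5), and their sums were 63.3 to 65.6, 56.8 to 61.4, 45.5 to 46.8 and 61.1 to 67.6 CPM in the same order. The 3 stromal genes summed to 83.9 to 86.3 CPM in line 73 and to 32.9 to 45.6 in the other lines, but its members went different ways: Pdgfrb was highest in line 73 (48.2 CPM), while Pdgfra was at 13.8 and 15.9 CPM in lines 112 and 113 and at 1.83 and 1.22 in lines 119 and 73. The part of these marker levels in the results below was not tested.

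At their strongest region, the starts of the AP-1 genes did not divide the lines by STAT3 genotype. The strongest region within 1 kb of each start was compared for the 9 genes that have one (for Fosl1, whose strand was not at hand, within 1 kb of either gene end). Batf had no region within 1 kb of its start. Peaks had been called in all 8 libraries at 7 of the 9, and in neither library of line 112 at Fosl1 and Batf3. At all 9 the libraries of the genotypes overlapped, and the log2 fold change (knockout over wild type, with lines as units) ran from -0.49 at Junb to 0.67 at Fosb, 5 above 0 and 4 below. In edgeR's quasi-likelihood test the p-values adjusted over all regions by the Benjamini-Hochberg method ran from 0.654 to 0.982. Line 113 was highest at 5 of these starts and line 73 at 4. Line 112 was lowest at 5, line 119 at 3 and line 113 at 1. The strongest regions genome-wide held 48.4% and 48.6% of counts in line 113 and 45.5% and 45.6% in line 73. They held 43.0% and 37.8% in line 112 and 37.1% and 37.7% in line 119. Lines 113 and 73 also have the higher p numbers (p44 and p68). The part of either in the start levels was not tested. Of all 16 member regions within 1 kb of a start (Fosl1: of either gene end), 1 was lower in both knockout lines by the pair rule given below. It lies at Fosl1 (chr19:5448533-5449110).

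Jun, which encodes c-Jun, a target of the JNK kinases that can act as a dimer with itself, had its start region at chr4:95051479-95052731. It stood at 62.4 and 52.3 CPM (line 112), 119 and 118 (line 113), 67.3 and 70.6 (line 119), and 93.2 and 93.9 (line 73). The highest and the lowest line were thus both knockouts, and the genotype difference was 0.11 on the log2 scale (SE 0.55, adjusted p = 0.961 in edgeR's quasi-likelihood test). Line 112 against line 113 gave -1.04 (adjusted p = 6.4e-07, edgeR, fit of the 8 libraries).

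Fos had its start region at chr12:85473387-85474674, with 69.1 and 52.6 CPM (line 112), 77.7 and 74.3 (line 113), 41.2 and 47.4 (line 119), and 56.1 and 57.5 (line 73). Both knockout means lay above both wild-type means, but a library of line 112 lay below both libraries of line 73. The log2 fold change was 0.45 (SE 0.55, adjusted p = 0.753 in edgeR's quasi-likelihood test), and 3 of the 6 pairs of lines differed.

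Fosl2, which encodes FRA-2, showed the widest spread between lines among these 9 regions, 1.47 on the log2 scale between the highest and the lowest line. The region at chr5:32135390-32136880 had 27.5 and 28.3 CPM (line 112), 67.1 and 70.4 (line 113), 34.0 and 35.6 (line 119), and 84.2 and 72.2 (line 73). Each genotype had a low and a high line. Lines 112 and 119 were low and lines 113 and 73 high, as in the shares of counts given above. Line 112 was below line 113 by a log2 difference of -1.30 (adjusted p = 7.7e-08, edgeR) and line 119 below line 73 by -1.17 (adjusted p = 1.1e-08, edgeR), whereas line 113 against line 73 gave -0.19 (adjusted p = 0.33, edgeR).

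Atf3 also had a low and a high line in each genotype at chr1:191183004-191183750, with 20.2 and 19.1 CPM (line 112), 62.8 and 44.3 (line 113), 33.7 and 36.8 (line 119), and 53.0 and 53.3 (line 73). Line 112 was the lowest and differed from each of the other 3 lines, while line 113 against line 73 gave 0.01 (adjusted p = 0.96, edgeR). Fosb, which encodes another FOS protein induced by the same signals, was high in line 113 alone at chr7:19309869-19310685, with 39.3 ± 1.16 CPM (SD, n = 2) against 23.0 ± 4.29 in line 112, 18.4 ± 0.549 in line 119 and 20.9 ± 2.00 in line 73.

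Junb, which encodes a weaker activator than c-Jun, was high in line 73 at chr8:84979607-84980431, 859 bp from the gene, with 58.2 ± 0.603 CPM against 35.5 ± 7.09, 27.6 ± 3.43 and 31.4 ± 1.02 in lines 112, 113 and 119. Its region over the start itself (chr8:84978447-84979067) held 24.0, 33.0, 22.5 and 34.5 CPM in lines 112, 113, 119 and 73, with a genotype difference of 0.01. Jund, the JUN gene known for steady expression, had 66.1 ± 10.8, 103 ± 12.7, 49.1 ± 1.97 and 80.2 ± 8.57 CPM in lines 112, 113, 119 and 73 at chr8:70698520-70700244. Fosl1, which encodes FRA-1, a FOS protein without the activation domain of FOS, was highest in line 73 at chr19:5447404-5448199, with 20.8 ± 3.13 CPM against 9.89 ± 0.817 in line 112, 13.1 ± 1.05 in line 113 and 10.5 ± 0.632 in line 119. Batf3 had 13.2 ± 2.60, 20.6 ± 2.85, 16.8 ± 0.782 and 15 ± 2.34 CPM in lines 112, 113, 119 and 73 at chr1:191097697-191098679, a region that contains the TTCNNNGAA match, with a genotype difference of 0.07 (SE 0.72). It was the start with the narrowest spread, 0.63 on the log2 scale.

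**Figure D1:**
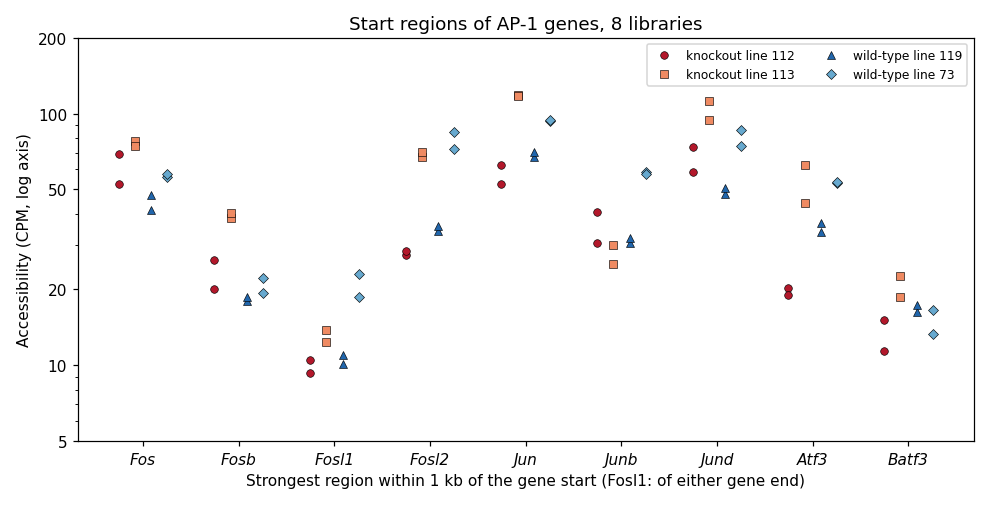
Accessibility (CPM, log axis) of the strongest region within 1 kb of the start of 9 AP-1 genes (Fosl1: of either gene end), 1 point per library, coloured and shaped by line. The red and blue points overlap at every gene, and lines of 1 genotype stand apart from each other at Fosl2 (27.9 and 68.7 CPM in the knockout lines) and Atf3.

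Away from the starts, more regions were lower in the knockout lines than higher. No region passed the genotype test, in which lines are the units: 0 of 80 tested member regions were called, as were 0.0% of the 140329 regions tested, and the smallest adjusted p among the members was 0.145 (edgeR's quasi-likelihood test). At an unadjusted p under 0.05, 11 of the 80 were lower in the knockout lines (8.64% of all regions) and 0 higher (8.27%). The 11 were 6 at Jun, 2 at Fosl2 and 1 each at Fos, Atf3 and Batf. The log2 fold change was below 0 in 46 of 80 (53.5% of all regions), with a median of -0.25 beside -0.09 over all regions tested. The 60 tested members over 1 kb from any gene end had a median of -0.65 (all such regions, -0.16), with 38 below 0 (54.9%), and the 20 within 1 kb of one had a median of 0.04 (all, 0.06), with 8 below 0 (44.3%). Of those 60, at an adjusted p under 0.05 between lines (edgeR), line 112 was below line 73 in 22 and above it in 5. Against line 119 it was lower in 13 and higher in 11. Line 113 was below line 73 in 30 and above it in 11, and below line 119 in 26 and above it in 13. Line 119 was itself below line 73 in 34 and above it in 9. Shares over all regions are given with the pairs of lines below.

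A second rule called a region separated if it differed in the same direction, at an adjusted p under 0.05, in each of the 4 knockout against wild-type pairs. This rule describes these 4 lines and not the genotypes. By it 9 of 80 member regions were lower in both knockout lines (7.41% of all regions tested) and 2 were higher (7.64%). Both the 2 higher and 8 of the 9 lower lay over 1 kb from a gene end, where 7.98% of all regions were separated as lower and 8.31% as higher. Within 1 kb of a gene end 1 member was lower (3.61%) and 0 were higher (3.15%). With library totals in place of TMM the split was 7 lower and 5 higher. Over all regions tested it was then 9003 lower and 12055 higher, against 10403 and 10724 with TMM. In 15 of the 81 regions every knockout library lay below every wild-type library (12.1% of all regions), and in 5 every one lay above (13.6%).

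**Figure D2:**
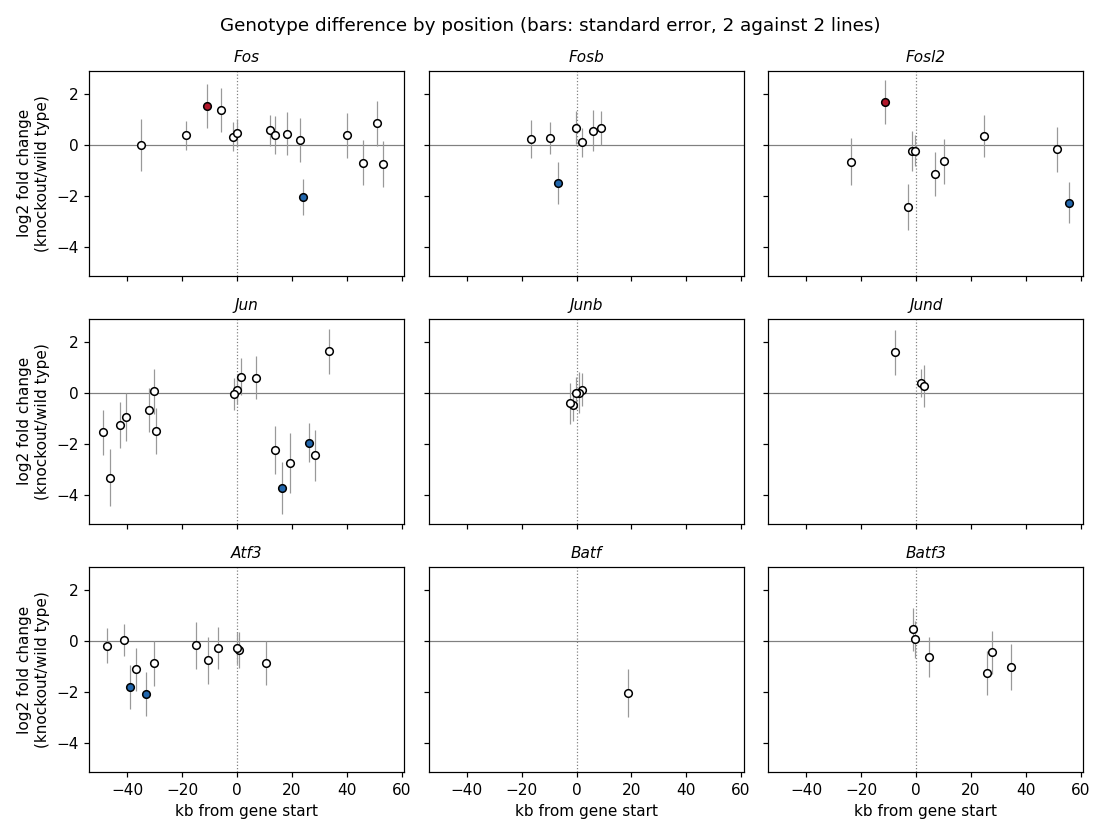
Log2 fold change, knockout over wild type, of each tested region of 9 loci against the distance of its midpoint from the gene start in kb, with bars of 1 standard error (2 against 2 lines); Fosl1 is left out because its strand was not at hand. Filled points are the separated regions, blue lower and red higher in the knockout lines. Points near the start lie close to 0, while those of Jun at both flanks lie mostly below it, down to -3.74.

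Jun had the largest differences. Distances below are from the gene start to the middle of a region, positive in the direction of transcription. The region at +16.5 kb (chr4:95035432-95035941), 13095 bp beyond the gene, held 0.931 and 1.54 CPM (line 112), 0.227 and 0.484 (line 113), 5.30 and 6.75 (line 119), and 14.6 and 15 (line 73). In counts these were 4, 5, 1 and 2 in the knockout libraries and 41, 40, 57 and 54 in the wild-type libraries. The groups did not overlap, peaks had been called in the 4 wild-type libraries and in none of the knockout ones, and wild-type lines averaged 10.4 ± 6.2 CPM (SD, n = 2 lines), 13.1 times the 0.795 ± 0.622 of the knockout lines. Pooled over libraries the ratio was 12.2, from 192 and 12 counts, with an exact 95% interval of 6.81 to 24.0 that covers counting error only. The log2 fold change was -3.74 (SE 1.02, adjusted p = 0.145 in edgeR's quasi-likelihood test), and DESeq2's Wald test on the same sums gave an adjusted p of 0.00582.

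The Jun region at +26.1 kb (chr4:95025806-95026401) was open in every library, with a peak in all 8. It held 10.01 and 7.08 CPM (line 112), 4.08 and 4.84 (line 113), 18.1 and 21.1 (line 119), and 31.0 and 31.4 (line 73). All 6 pairs of lines differed, the wild-type mean was 3.91 times the knockout mean, and the log2 fold change was -1.94 (SE 0.77, adjusted p = 0.223 in edgeR's quasi-likelihood test).

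At 4 other Jun regions, named here after their values had been seen, 1 wild-type line was far above the remaining lines. All 4 were among the 6 Jun regions with an unadjusted genotype p under 0.05. The region at -46.3 kb (chr4:95098213-95098749) held 34.6 and 29.4 CPM in line 73 and 1.13 to 2.19 CPM in the other 6 libraries. It had peaks in line 73 alone, and line 119 against line 73 gave a log2 difference of -3.95 (adjusted p = 1.1e-16, edgeR). The region at +28.4 kb (chr4:95023524-95024083) was the reverse among the wild-type lines, with 23.9 ± 1.49 CPM in line 119 and 2.97, 2.21 and 3.43 CPM in lines 112, 113 and 73. Regions at +13.9 kb and +19.4 kb were highest in line 73, at 12.7 ± 4.5 and 11.7 ± 0.0783 CPM, against at most 3.09 and 1.24 CPM in the other line means. At +13.9 kb the libraries of the genotypes did not overlap, and at the other 3 regions they did. Summed over the 15 regions of the locus outside the start, Jun had 58.4, 55.6, 91.6 and 173 CPM in lines 112, 113, 119 and 73, a wild-type mean 2.32 times the knockout mean. Its 452 to 458 neighbouring tested regions within 5 Mb had a median log2 fold change of 0.06.

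**Figure D3:**
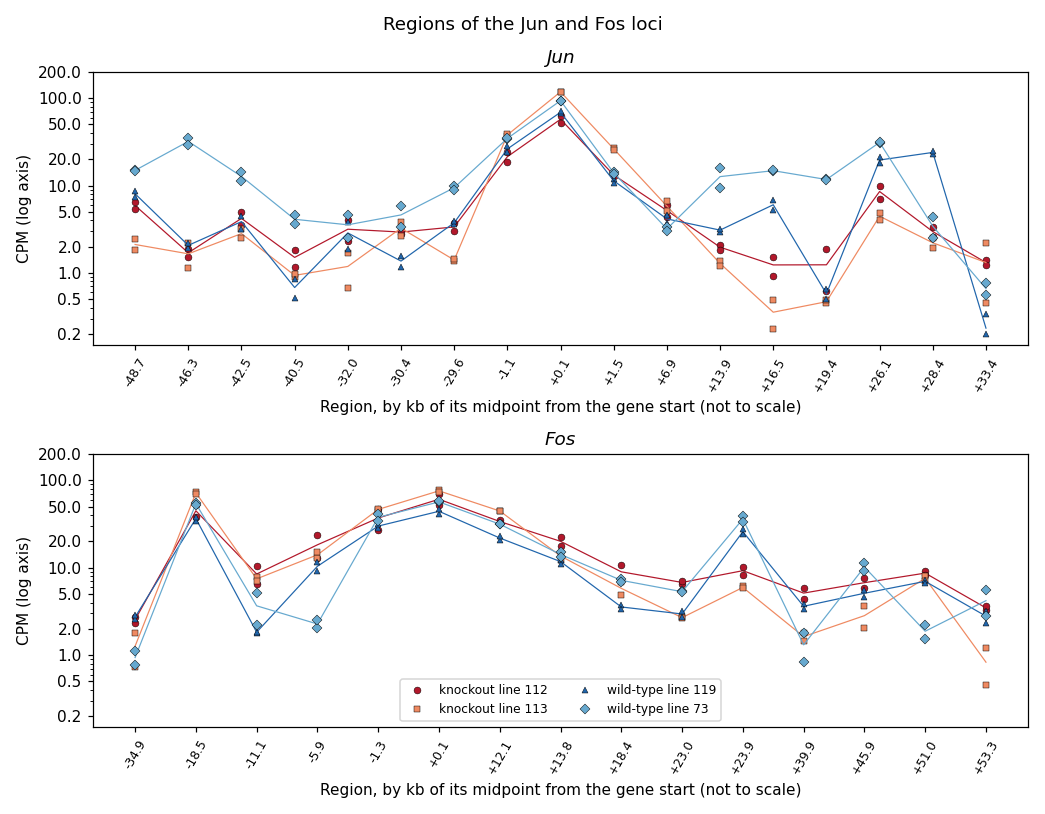
CPM (log axis) of each region of the Jun and Fos loci, 1 point per library, ordered by the distance of the midpoint from the gene start in kb (spacing not to scale), with a line through each cell line's means. At Jun the highest and lowest lines are both knockouts at the start (+0.1 kb, 118 and 57.3 CPM), while line 73 is far above the others at -46.3 kb (32.0 CPM), and at Fos line 73 is lowest at -5.9 kb and both wild-type lines are highest at +23.9 kb.

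Junb and Jund had no separated region. The 5 Junb regions had log2 fold changes from -0.49 to 0.12. At Jund the region with the widest spread between lines, at -7.6 kb (chr8:70689790-70690426), held 3.72 and 3.69 CPM (line 112), 2.95 and 2.66 (line 113), 0.517 and 0.507 (line 119), and 2.05 and 1.39 (line 73). No wild-type library reached the lowest knockout library, no library had a peak there, and the log2 fold change was 1.58 (SE 0.89, adjusted p = 0.382 in edgeR's quasi-likelihood test).

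Fos differed from Jun in that 12 of its 15 regions had a log2 fold change above 0, with a median of 0.37. The exception with the largest difference lay at +23.9 kb (chr12:85497516-85498160). It held 8.38 and 10.2 CPM (line 112), 6.12 and 5.81 (line 113), 24.3 and 27.5 (line 119), and 38.7 and 33.6 (line 73), with a peak in all 8 libraries. The wild-type mean was 4.07 times the knockout mean, the groups did not overlap, and the log2 fold change was -2.04 (SE 0.72, adjusted p = 0.184 in edgeR's quasi-likelihood test).

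In the opposite direction, the Fos region at -11.1 kb (chr12:85462240-85463328) held 6.52 and 10.5 CPM (line 112), 7.93 and 7.02 (line 113), 1.81 and 1.86 (line 119), and 5.12 and 2.22 (line 73). The knockout mean was 2.90 times the wild-type mean (log2 fold change 1.5, SE 0.86, adjusted p = 0.389 in edgeR's quasi-likelihood test), with 1 library of line 73 close to the knockout range. This region was no longer separated when line 112 replicate 2, line 113 replicate 1 or line 73 replicate 2 was left out, or with DESeq2. The region at -5.9 kb (chr12:85467477-85468439) was low in line 73, with 2.05 and 2.5 CPM, against 9.18 and 11.6 (line 119), 23.7 and 12.9 (line 112), and 12.9 and 15.2 (line 113). The most open region away from the Fos start, at -18.5 kb (chr12:85455102-85455764), had a peak in all 8 libraries and line means of 44.9, 72.1, 36.6 and 54.3 CPM in lines 112, 113, 119 and 73. Outside the start the Fos locus summed to 177, 181, 136 and 173 CPM in these lines.

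Fosb had 1 separated region, at -6.9 kb (chr7:19316693-19317279), with 7.91 and 7.08 CPM (line 112), 3.85 and 5.32 (line 113), 13.7 and 11.3 (line 119), and 22.3 and 20.8 (line 73). Peaks had been called there in the 4 wild-type libraries only, and the log2 fold change was -1.5 (SE 0.81, adjusted p = 0.360 in edgeR's quasi-likelihood test). It was no longer separated without line 119 replicate 1, with library totals, with only regions over a peak or with DESeq2. The other 6 Fosb regions had log2 fold changes above 0.

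Fosl1 was lower in the knockout lines at 2 of its 4 regions. At chr19:5444850-5445439, 2259 bp outside the gene, the libraries held 7.45 and 7.69 CPM (line 112), 3.85 and 6.53 (line 113), 12.02 and 14 (line 119), and 27.1 and 25.3 (line 73) (wild-type mean 3.07 times the knockout mean). At chr19:5448533-5449110, inside the gene and 835 bp from a gene end, they held 2.56 and 5.23, 4.98 and 3.63, 8.01 and 6.75, and 16.1 and 11.7 CPM in the same order. Groups did not overlap at either, and all 4 Fosl1 regions had their highest mean in line 73. The first was not separated without line 112 replicate 1 or line 119 replicate 2, and the second without line 112 replicate 1, line 113 replicate 2 or line 119 replicate 1, or with only regions over a peak. Neither was separated with DESeq2. Another of the Fosl1 regions, at chr19:5451681-5452181, lies inside the gene but within 1 kb of an end of Ccdc85b.

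Fosl2 held a separated region in each direction. At +55.8 kb (chr5:32191924-32192659), 34084 bp beyond the gene, the libraries held 6.75 and 4.62 CPM (line 112), 4.30 and 4.84 (line 113), 13.4 and 14.7 (line 119), and 39.4 and 33.1 (line 73). The wild-type mean was 4.91 times the knockout mean (log2 fold change -2.27, SE 0.80, adjusted p = 0.186 in edgeR's quasi-likelihood test). At -11.3 kb (chr5:32124879-32125486) the order was reversed at low levels, with 3.49 and 2.15, 4.08 and 3.87, 0.905 and 1.52, and 1.28 and 0.556 CPM, and this call was lost without line 112 replicate 1, without either library of line 119, without line 73 replicate 2, or with DESeq2. The Fosl2 region with the widest spread, at -2.9 kb (chr5:32133101-32134039), was open in line 73, with 43.0 and 31.9 CPM against 2.95 to 8.10 in the other 6 libraries. Outside the start Fosl2 summed to 34.3, 40.7, 47.7 and 112 CPM in lines 112, 113, 119 and 73, and the neighbouring regions within 5 Mb had a median log2 fold change of -0.31.

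Atf3 had a pair of separated regions far upstream. At -33.1 kb (chr1:191216188-191216736) the libraries held 6.52 and 6.77 CPM (line 112), 2.27 and 2.66 (line 113), 11.0 and 11.5 (line 119), and 26.6 and 27.2 (line 73). At -38.9 kb (chr1:191221958-191222504) they held 4.89 and 7.08, 2.95 and 2.18, 12.1 and 9.79, and 17.9 and 17.8 CPM in the same order. All 6 pairs of lines differed at both, so the knockout lines also differed from each other (log2 1.42 and 1.18, line 112 over line 113). The genotype log2 fold changes were -2.07 (SE 0.87, adjusted p = 0.244) and -1.79 (SE 0.86, adjusted p = 0.298) in edgeR's quasi-likelihood test. Both calls were lost without line 112 replicate 1 or line 119 replicate 1, and the first also without line 119 replicate 2, with library totals and with only regions over a peak. Neither was separated with DESeq2. Farther out lay regions with a peak in all 8 libraries, that at -41.2 kb (30.6, 41.6, 24.1 and 47.1 CPM in lines 112, 113, 119 and 73) and that at -47.3 kb, which was highest in line 119 (18.9, 21.4, 32.9 and 13.1 CPM). Atf3 had 11 of 12 log2 fold changes below 0, and the neighbourhood it shares with Batf3 had a median of -0.31.

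Batf and Batf3 had no separated region. The tested Batf region lies inside the gene at +18.9 kb (chr12:85705341-85705943) and held 3.96 and 7.39 CPM (line 112), 1.36 and 1.21 (line 113), 9.05 and 9.12 (line 119), and 15.6 and 21.4 (line 73). The groups did not overlap and peaks had been called in the wild-type libraries only, but line 112 against line 119 missed the threshold (adjusted p = 0.055, edgeR), and the genotype test gave -2.03 (SE 0.92, adjusted p = 0.275, edgeR). The other Batf region (chr12:85669971-85670471) had too few counts to be tested. At Batf3 the widest spread was at +34.6 kb (chr1:191132742-191133242), with line means of 1.85, 0.816, 1.33 and 4.07 CPM in lines 112, 113, 119 and 73.

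**Figure D4:**
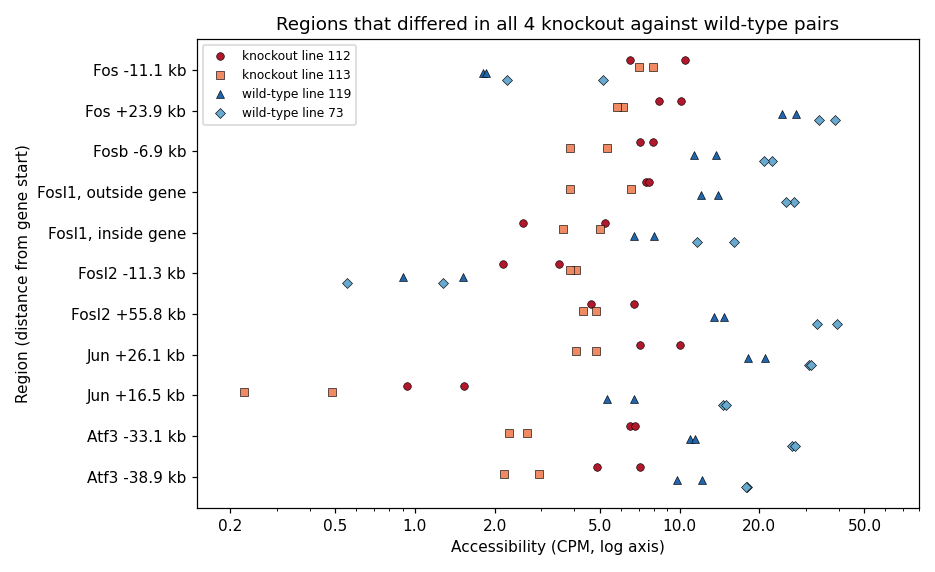
CPM (log axis) of the 11 separated regions, 1 point per library, coloured and shaped by line; positions are kb from the gene start (for Fosl1, outside or inside the gene). In 9 regions the red points lie left of the blue ones, and in the Fos -11.1 kb and Fosl2 -11.3 kb regions they lie right of them.

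Line 73 stood apart more often than any other line. It was the highest of the 4 in 42 of the 81 regions, against 20 for line 113, 10 for line 112 and 9 for line 119. How often each line was highest over all regions was not counted. Over all regions tested, line 73 was also the line most often higher (13.2%) and most often lower (10.2%) than each other line. In 21 of 80 tested regions (26.2%) line 73 was higher than each other line at an adjusted p under 0.05 (13.2% of all regions), 9 of them at Jun and 4 at Fosl1, and in 2 it was lower than each (10.2%). This count was made after the data had been seen, and was 12 without line 119 replicate 1. Line 113 was higher than each other line in 8 (7.26% of all regions) and lower in 8 (2.65%). Line 119 was higher in 3 (11.0%) and lower in 6 (4.86%), and line 112 was higher in 0 (1.76%) and lower in 1 (1.28%), the Atf3 start region. The 9 regions separated as lower in the knockout lines all had their highest mean in line 73.

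Compared in pairs, lines of the same genotype also differed from each other at many of the member regions. Line 119 was below line 73 in 48 of 80 member regions (29.4% of all regions) and above it in 9 (27.5%). Line 112 was below line 73 in 34 (26.1%) and above it in 5 (23.8%), and line 113 was below line 73 in 34 (26.5%) and above it in 16 (25.8%). Against line 119 the balance was even, with line 112 lower in 15 (23.5%) and higher in 15 (22.2%), and line 113 lower in 27 (28.8%) and higher in 28 (30.2%). Line 112 was below line 113 in 15 (15.6%) and above it in 11 (8.24%). These comparisons share lines and are not independent. In all, 78 of the 80 regions differed in at least 1 of the 6 pairs (88.1% of all regions tested), and the median range between the highest and lowest line was 1.45 on the log2 scale (all regions, 1.74).

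**Figure D5:**
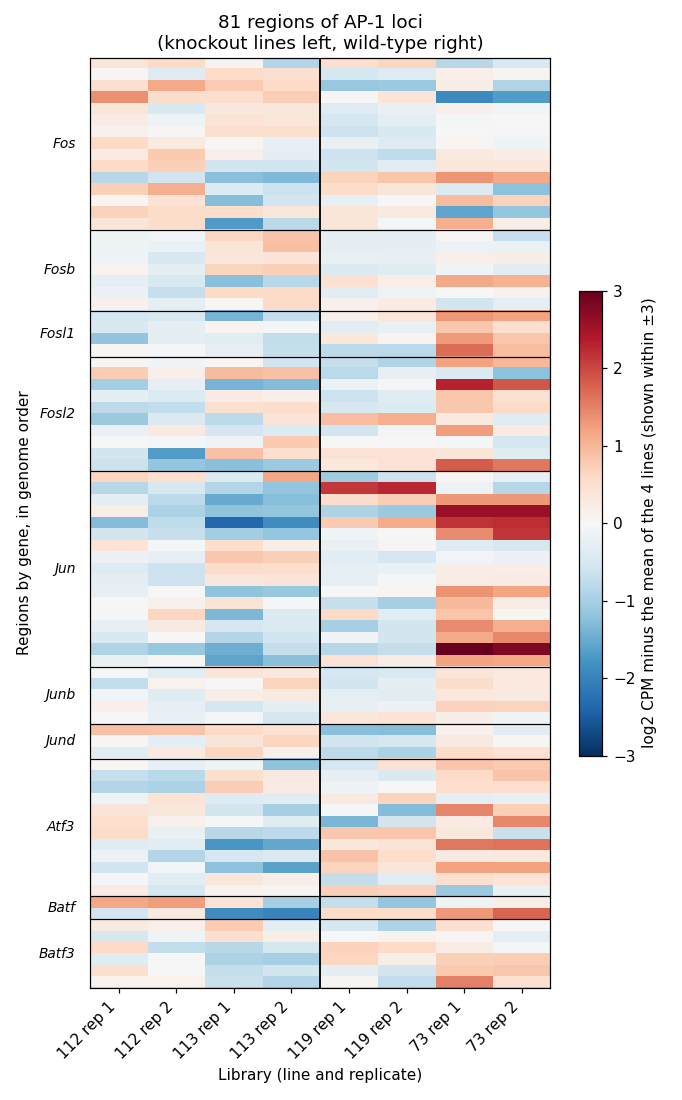
Log2 CPM of the 81 regions (rows, by gene in genome order) in the 8 libraries (columns), minus the mean of the 4 lines, on a colour scale from -3 to 3. Strong red cells lie in the line 73 columns at Jun and Fosl2, and in the line 119 columns at the Jun +28.4 kb region. Most cells at Junb and Jund are pale.

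The authors' peak lists, called per library, gave a second view of the same libraries. Peaks lay over 31 and 23 (line 112), 37 and 31 (line 113), 55 and 47 (line 119), and 52 and 46 (line 73) of the 81 regions. All wild-type libraries thus had more than any knockout library, but they also had more peaks in all (56096 to 94906, against 20387 to 52250). The part of this in the member counts was not tested. A peak was present in all 8 libraries over 22 regions and in none over 6.

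Related genes were described by lists of AP-1 partners, upstream kinases, other immediate-early genes and known targets. The lists were chosen with earlier results of these data known, so their shares are a description and not a test. Over all regions tested, 7.41% were separated as lower and 7.64% as higher in the knockout lines, and the shares that follow in parentheses are those of each list. Separated regions among 203 near 21 partner and other bZIP genes numbered 23 lower (11.3%) and 7 higher (3.45%) in the knockout lines, among 171 near 19 kinases and upstream factors 12 (7.02%) and 9 (5.26%), and among 190 near 22 other immediate-early genes 22 (11.6%) and 12 (6.32%). Among 189 regions near 22 known AP-1 targets there were 27 (14.3%) and 5 (2.65%), with a median log2 fold change of -0.54 (all regions, -0.09). The kinase list's share of lower regions was close to that of all regions. The genotype test called 0 regions in each list, as it did over all regions. At gene ends, 4 of 21 targets were separated as lower, with the strongest end region of each gene used. They were Mmp2 and Tnc, a matrix protease and a matrix glycoprotein, the protease inhibitor Timp1, and Ereg, an EGF receptor ligand. Of all regions within 1 kb of a gene end 3.61% were separated as lower. A gene can have several of these, so the sets are unlike. Ereg had line means of 4.79, 2.11, 26.5 and 60.7 CPM in lines 112, 113, 119 and 73 (log2 fold change -3.67, SE 0.78, adjusted p = 0.143 in edgeR's quasi-likelihood test). Of the immediate-early genes Arc alone was separated at its end, with 7.26, 6.76, 18.4 and 42.0 CPM in the same lines, and 0 partners and 0 kinases were.

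Likeness of pattern was measured for the 3 of the 9 start regions with the widest spread between lines, as the Euclidean distance of centred log2 CPM over the 8 libraries to the strongest end region of each of 14195 protein-coding genes. Nearest to Fosl2 were Afap1 (0.164), Cad (0.168) and Selenoi (0.184). Nearest to Atf3 were Kbtbd7 (0.258), Rab28 (0.3) and Lgr5 (0.363), and nearest to Fosb were Chst14 (0.126), Slc6a8 (0.210) and Farp1 (0.226). These points share libraries and depth, and the distances are a description. Genes on the same chromosome as a member were not left out. Likeness by position, such as a shared difference in copy number between lines, was not tested.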

How the data were processed

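The authors deposited raw counts for 148664 regions in 8 libraries and a peak list per library. Per the submitters' processing notes, Bowtie2 2.2.4, Picard 1.118 and MACS2 2.1.1.20160309 were used with mm10 (GRCm38); whether reads or cuts were counted, and whether positions were shifted for the transposase, is not given in the sources used here. In the deposited peak lists each peak carries the authors' score, its fold (ratio) to background, and −log10 values for p and q. A peak counted for a region if they shared at least 1 bp. Members and lists were chosen with earlier results of these data known.

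Regions were placed by the GRCm38.p6 gene table of RefSeq, and strands came from its promoter table. Regions were kept by filterByExpr on counts summed per line (minimum count 10, minimum total 15; 140329 kept). edgeR 4.0.16 in R 4.3.3 used TMM, glmQLFit (robust) and glmQLFTest, two-sided, with Benjamini-Hochberg adjustment over all regions and a threshold of 0.05. The genotype test used counts summed per line, and pairs of lines were contrasts in 1 fit of all 8 libraries. A standard error was the log2 fold change divided by the square root of F. Heatmap, ranges and likeness were based on log2 CPM (prior count 2). The scripts were tested on simulated data. Replicate numbers did not pair libraries across lines. Regions were named by a rule: the strongest region within 1 kb of the start, every separated region, and the region of each locus with the widest range between line means. Alternatives were DESeq2 1.42.0, other scalings and filters, a replicate block, libraries as units, regions over peaks, members within 10 kb and each library left out. Precision is limited by depth: counting intervals would not cover PCR duplicates, whose treatment is not known.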

Additional observations from a re-analysis of the deposited data

Results flagged for a closer look

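In the Fos region at -11.1 kb, line 73 replicate 1 stood at 5.121 CPM, far from the other 3 wild-type libraries (1.81 to 2.22 CPM) by Dixon's criterion. Of 50 sets of 4 libraries tested (25 named regions, both genotypes) 1 was marked, and chance marks about 1 in 20.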

How the results depend on the processing

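The 25 named log2 fold changes kept their direction in all alternatives run except at the Batf3 start region, near 0, which was -0.0349 with a mean of at least 50 counts and -0.0304 to 0.152 with 1 library left out (below 0 without line 112 replicate 2, line 113 replicate 1 or line 73 replicate 2). The genotype test called 0 member regions in each fit that left out 1 library, 2 with DESeq2's Wald test (the Jun regions at +16.5 and -46.3 kb, adjusted p = 0.00582 and 0.0319, beside 6986 of all regions), 18 with the 8 libraries as units (22.7% of all regions) and 14 with a replicate block in that fit. A replicate block in the fit of lines left 11 separated regions. Separated regions numbered 4 with DESeq2 (4 lower, 0 higher) and 3 within 10 kb of the genes (3 lower, 0 higher). Total counts gave 5 higher, beside 12055 of all regions (10724 with TMM). Leaving out 1 library gave 6 to 14 (5 to 11 lower, 0 to 3 higher). The regions at Fos +23.9 kb, Fosl2 +55.8 kb, Jun +16.5 kb and Jun +26.1 kb stayed separated in all 8 such fits and with DESeq2, and the other 7 did not.

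For pairs of lines in the order 112 against 119, 112 against 73, 113 against 119, 113 against 73, 112 against 113 and 119 against 73, calls were 30, 39, 55, 50, 26 and 57. A mean of at least 50 counts (35 members tested) gave 17, 21, 20, 25, 16 and 16, and members within 10 kb (40 tested) gave 12, 20, 31, 21, 15 and 26, both from fewer regions. DESeq2 gave 11, 30, 35, 36, 15 and 31; the cause was not tested. Leaving out 1 library gave 14 to 34, 30 to 40, 35 to 57, 34 to 54, 15 to 30 and 31 to 62. Regions called higher in line 73 than in each other line numbered 21 in the main fit. They numbered 8 with a mean of at least 50 counts, 13 with DESeq2, 8 within 10 kb and 12 to 22 with 1 library left out.

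Peaks with a −log10 q of at least 5 covered 15 member regions in line 112 replicate 2. Peaks over 50% of a region numbered 8 there, 20 and 19 in line 113 and 33 in line 73 replicate 1. Same-numbered libraries of different lines had correlations of their deviations between -0.0367 and 0.00386, so the numbers gave no pairing. Low counts limit regions such as Jun +16.5 kb, with 1 to 5 counts in knockout libraries.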
